A study of Mus with 6 samples.

Results

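Pantr1, Pantr2 and Rmst are long non-coding RNAs (lncRNAs) of the developing nervous system, and their levels were compared in mouse midbrain tissue, the pars compacta of the right substantia nigra, where dopaminergic neurons lie. They were taken by name from a table of 2282 named RNAs, and each name had 1 row, so 3 of 2282 were members. The treated group had 3 samples from mice that overexpress human α-synuclein with the A53T substitution and received AVE0991 at 10 mg/kg by intraperitoneal injection daily for 30 days. The model group had 3 samples of the same genotype given 0.9% sterile saline in the same way. AVE0991 is a small molecule that activates Mas, the angiotensin-(1-7) receptor. Both groups carry the transgene, so no value below compares the genotype with wild type. The sources used here do not give the promoter or vector that drives α-synuclein, or the age and number of animals behind each sample. Whether the 3 samples of a group are separate animals is not stated, so each p-value covers only sample-to-sample spread, and that spread may be technical.

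Pantr1 (linc-Brn1a) and Pantr2 (linc-Brn1b) are transcribed on either side of Pou3f3, the gene of a POU-domain transcription factor (Brn1) of neural progenitors and cortical neurons. Mice that lack linc-Brn1b have defects of cortical progenitors and upper cortical layers. Rmst is a neurogenic lncRNA that, in human neural progenitors, binds the transcription factor SOX2 and is needed for neuronal differentiation. In mouse embryos it marks the midbrain floor plate, from which dopaminergic neurons arise, and the isthmus. In the RefSeq annotation of GRCm38.p6, Pou3f3, Pantr1 and Pantr2 lie on chromosome 1 and Rmst lies on chromosome 10. The build named in the submitters' processing notes is mm9, so no coordinates are given. The 3 members carry no protein product in RefSeq, which lists them as lncRNAs.

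The named table gives a mean per group and a test per name, not values per sample. The whole counts behind these means were recovered by arithmetic (see the processing section), with exactly 1 set of 6 counts for each member. The recovered libraries are called a, b and c within each group, by falling library factor, and could not be matched to the numbered samples. Normalized counts are recovered counts divided by the authors' library factor. These factors were not given and were worked out here from the group means. Library totals over recovered names ran from 1694699 to 1907288 for AVE0991 and from 2152347 to 2299740 for the model. Of the model libraries, c stood closer to the AVE0991 libraries. Across 1866 tested names, which are not independent replicates, its Spearman correlation with the AVE0991 libraries ran from 0.951 to 0.958. For model libraries a and b these values ran from 0.920 to 0.932. Fold changes of the members and their tested neighbours are therefore given with and without model library c. Because c was singled out from these same counts for that likeness, leaving it out tends to widen group differences. Names called went from 288 with all libraries to 417 without c, so calls without c are not separate support. The labels give no reason to leave out model library c.

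The 2 RNAs beside Pou3f3 had higher means with AVE0991 than in the model group, and Rmst was nearly level. None of the 3 passed the edgeR quasi-likelihood test at an adjusted p of 0.05, where 15.4% of the 1866 tested names passed, 7.56% as higher and 7.88% as lower. At an unadjusted p under 0.05 in the same test, 2 of the 3 members (Pantr1 and Pantr2) passed, both higher, against 30.7% of tested names in either direction and 16.3% in the higher direction. The groups of these 2 members did not overlap, as was so for 39.0% of tested names in either direction and 16.5% in the higher direction. DESeq2 called both Pantr1 and Pantr2 after adjustment (22.1% of names called), limma-voom called Pantr1 alone (18.1% called), and so did edgeR with library totals as scaling (16.6% called).

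Pantr1 had normalized counts of 10415, 7644 and 8188 with AVE0991 (libraries a to c), against 4649, 4872 and 7568 in model samples (libraries a to c). The lowest AVE0991 library was just above model library c, while model libraries a and b lay well below both. The means were 8749 ± 1469 with AVE0991, against 5697 ± 1625 for the model (n = 3 each, ± SD). The fitted log2 fold change was 0.68 ± 0.22 (SE), a fold of 1.61 with a 95% interval from 1.14 to 2.27. Its adjusted p was 0.0702 in that edgeR test, adjusted by Benjamini-Hochberg over all tested names (unadjusted p = 0.0130). Without model library c the log2 fold change was 0.92 ± 0.15 (SE) and the adjusted p was 0.00461 by the same edgeR test, in a fit that called 21.8% of names, 11.6% as higher.

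Pantr2 had normalized counts of 1626, 1275 and 1393 with AVE0991 (libraries a to c), against 1016, 941 and 1249 in model samples (libraries a to c). Again AVE0991 library a was highest, model library c was the highest of its group, and the gap between the groups was narrow. Means were 1431 ± 178 with AVE0991, against 1069 ± 161 for the model (n = 3 each, ± SD). The log2 fold change was 0.49 ± 0.17 (SE), a fold of 1.40 with a 95% interval from 1.08 to 1.82. The edgeR quasi-likelihood test gave an adjusted p of 0.0832 (unadjusted p = 0.0175). Leaving out model library c gave a log2 fold change of 0.59 ± 0.16 (SE) and an adjusted p of 0.0327 in the same edgeR test.

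Rmst had normalized counts of 3675, 3547 and 3052 with AVE0991 (libraries a to c), against 3268, 3566 and 3656 in model samples (libraries a to c). By these normalized counts the groups overlapped across nearly their whole range, and the lowest value was AVE0991 library c. The means were 3425 ± 329 with AVE0991, against 3497 ± 203 for the model (n = 3 each, ± SD). The log2 fold change was 0.04 ± 0.13 (SE) with TMM scaling and -0.030 with the authors' library factors, so its sign depends on the scaling. Over all tested names the median was -0.00025 with TMM scaling and -0.067 with the authors' library factors. The 95% interval of the fold ran from 0.840 to 1.25. It left out the folds fitted for Pantr1 (1.61) and Pantr2 (1.40) but overlapped their own intervals, which began at 1.14 and 1.08. The interval by itself therefore does not show that Rmst differed from them. The adjusted p was 0.873 by edgeR's quasi-likelihood test, and it was 0.837 without model library c.

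**Figure D1:**
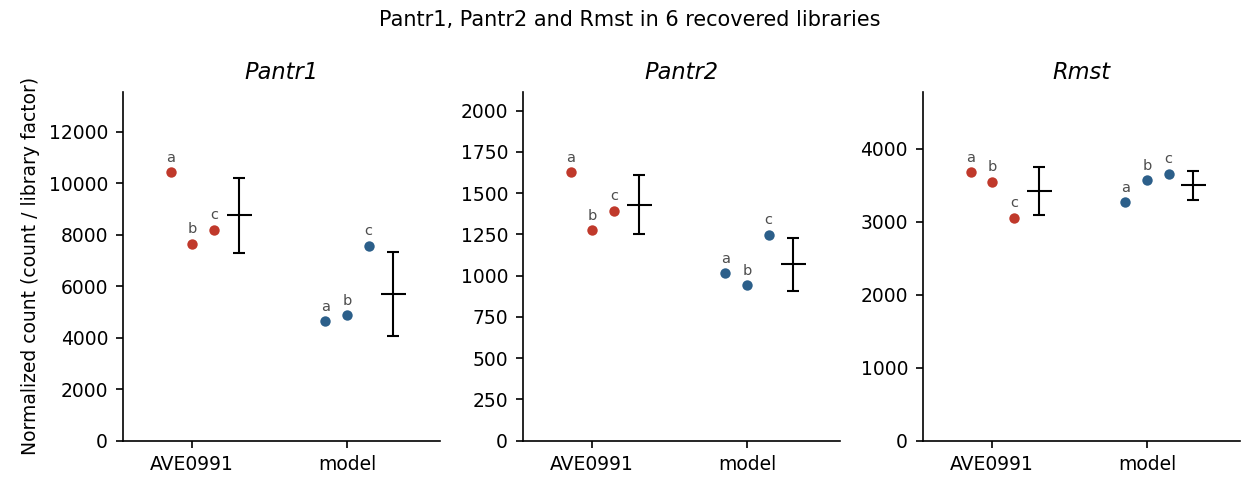
Normalized counts (count divided by library factor, linear axis from 0) of Pantr1, Pantr2 and Rmst in the AVE0991 libraries (red) and the model libraries (blue), with letters for the recovered libraries and bars for the mean ± SD of 3. For Pantr1 and Pantr2 model library c sits just under the lowest AVE0991 library, and for Rmst the groups overlap.

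The authors' own test was made on normalized counts name by name. For Pantr1, the authors' deposited table gives a difference of means of 3052 normalized counts, AVE0991 minus model, with an interval from -472 to 6577 and p = 0.0739 (authors' test; 3.96 degrees of freedom). For Pantr2 the authors' deposited table gives a difference of 362, an interval from -23.9 to 749 and p = 0.0597 (authors' test; 3.96 degrees of freedom). For Rmst the authors' deposited table gives a difference of -71.8, an interval from -743 to 600 and p = 0.767. Over the whole table, 424 of 2247 names (18.9%) had an unadjusted p under 0.05, and none of the 3 members did. After Benjamini-Hochberg adjustment here no name passed.

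The spread between libraries was larger than counting error for all 3 members. Counting alone would give Pantr2, the least counted member with 1052 to 1613 counts per library, a coefficient of variation of 2.49% to 3.08%. Its observed coefficients were 12.5% with AVE0991 and 15.0% in the model group. Pantr1 varied by 16.8% with AVE0991 and by 28.5% in the model group, where library c lay above the other two. Rmst was the steadiest, at 9.60% with AVE0991 and 5.81% in the model group. Its standard error was smaller than that of 97.5% of tested names, against 84.4% for Pantr2 and 62.4% for Pantr1.

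Ratios of counts within a library do not depend on library scaling. They are not corrected for transcript length, so only their differences between libraries are read. The ratio of Pantr1 to Rmst was 2.83, 2.15 and 2.68 with AVE0991 (libraries a to c), against 1.42, 1.37 and 2.07 in model samples (libraries a to c). These groups did not overlap (exact permutation test on log2 ratios, two-sided, p = 0.1, the smallest that 3 against 3 allows; adjusted p = 0.2 over 6 ratios). Pantr2 to Rmst was 0.442, 0.360 and 0.456 with AVE0991, against 0.311, 0.264 and 0.342 in the model group, again without overlap and with the same exact p. The ratio of Pantr1 to Pantr2 was 6.41, 5.99 and 5.88 with AVE0991, against 4.57, 5.17 and 6.06 in the model group. Here the groups overlapped through model library c (exact permutation test, two-sided, p = 0.3, adjusted p = 0.45 over 6 ratios). Of the 1865 other tested names, 35.3% had a ratio to Rmst that did not overlap between groups, 17.3% in the higher direction. With Rmst nearly level, the ratios to it largely repeat the non-overlap of Pantr1 and Pantr2 themselves.

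**Figure D2:**
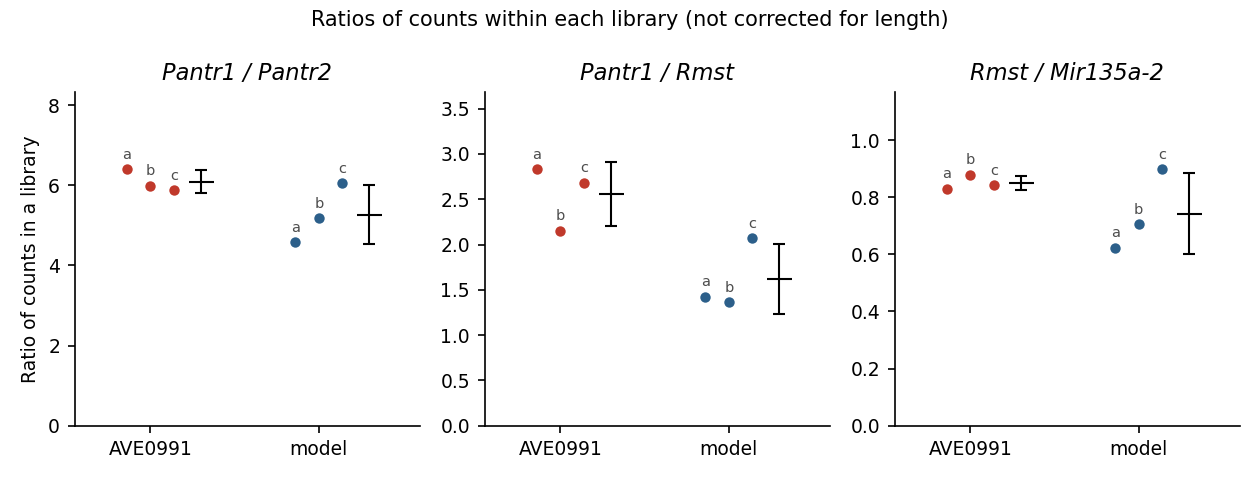
Ratios of recovered counts within each library (linear axes from 0) for Pantr1 over Pantr2, Pantr1 over Rmst, and Rmst over Mir135a-2, with AVE0991 libraries in red, model libraries in blue and bars for the mean ± SD of 3. Of these 3, only the Pantr1 to Rmst ratio separates the groups, with its model library c at 2.07 just under the lowest AVE0991 library at 2.15.

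Another lncRNA of the Pou3f3 locus, Dalir, passed the edgeR test that Pantr1 and Pantr2 did not pass. Among the 10 nearest RefSeq genes on either side of Pou3f3, the named table held Pantr1, Pantr2 and Dalir. Dalir (Dali) is a lncRNA that, in mouse neuroblastoma cells, promotes neural differentiation and interacts with the POU3F3 protein. Dalir had normalized counts of 2157, 1998 and 1931 with AVE0991 (libraries a to c), against 911, 1238 and 1528 in model samples (libraries a to c). The AVE0991 libraries lay close together and above every model library, with model library c again the highest of its group. Groups were separated in this direction for 16.5% of tested names. Dalir rose by a log2 fold change of 0.80 ± 0.19 (SE; adjusted p = 0.0283, edgeR). That call was lost when any 1 library other than model library c was left out (adjusted p from 0.0776 to 0.101, edgeR). Without model library c the log2 fold change was 0.96 ± 0.16 (SE). All 3 lncRNAs beside Pou3f3 had log2 fold changes above 0, with overlapping 95% intervals. The median over all tested names was -0.00025, so a value above 0 was common. The 3 come from the same libraries and locus and are not independent results. The ratio of Pantr2 to Dalir was 0.754, 0.638 and 0.722 with AVE0991, against 1.12, 0.761 and 0.818 in the model group, without overlap (exact permutation test, two-sided, p = 0.1, adjusted p = 0.2 over 6 ratios). The share of other names with a ratio to Dalir that did not overlap was not computed. This separation is therefore not read as a result for Pantr2. For Pantr1 to Dalir the groups overlapped (exact permutation test, two-sided, p = 0.5). Since the strand setting of the counting is not given, reads of overlapping transcripts on opposite strands cannot be told apart, here or for the antisense RNAs named below. Pou3f3 itself is protein-coding and was not analysed here.

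Near Rmst, among the 10 nearest RefSeq genes on either side, the named table held Mir135a-2, Gm31592, Gm20757 and 4930534H03Rik, and neither of the 2 that could be tested passed. Mir135a-2 is a gene of miR-135a, a microRNA of the embryonic midbrain in mice, and it lies next to Rmst without overlapping its RefSeq span. It had normalized counts of 4426, 4038 and 3620 with AVE0991 (libraries a to c), against 5242, 5057 and 4066 in model samples (libraries a to c). Model library c fell among the AVE0991 values, so the groups overlapped. The log2 fold change was -0.18 ± 0.14 (SE; adjusted p = 0.450, edgeR quasi-likelihood test). Without model library c it was -0.31 ± 0.12 (SE; adjusted p = 0.119, edgeR). The ratio of Rmst to Mir135a-2 was 0.830, 0.878 and 0.843 with AVE0991, against 0.623, 0.705 and 0.899 in the model group, and also overlapped (exact permutation test, two-sided, p = 0.4). Counts at Mir135a-2 come from total RNA libraries and do not measure mature miR-135a. For Gm31592 the log2 fold change was -0.14 ± 0.34 (SE), against 0.036 ± 0.38 (SE) without model library c. Gm20757 had at most 6 counts in any library and 4930534H03Rik had 8 counts in 1 model library and 0 elsewhere, so neither was tested. The related locus Mir135a-1, on another chromosome, rose by a log2 fold change of 1.20 ± 0.30 (SE; adjusted p = 0.0300, edgeR), with a normalized count of 196 ± 35.2 with AVE0991, against 89.5 ± 27.3 for the model (n = 3 each, ± SD). The Mir135a-1 call was lost when any 1 library other than model library c was left out (adjusted p up to 0.101, edgeR).

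**Figure D3:**
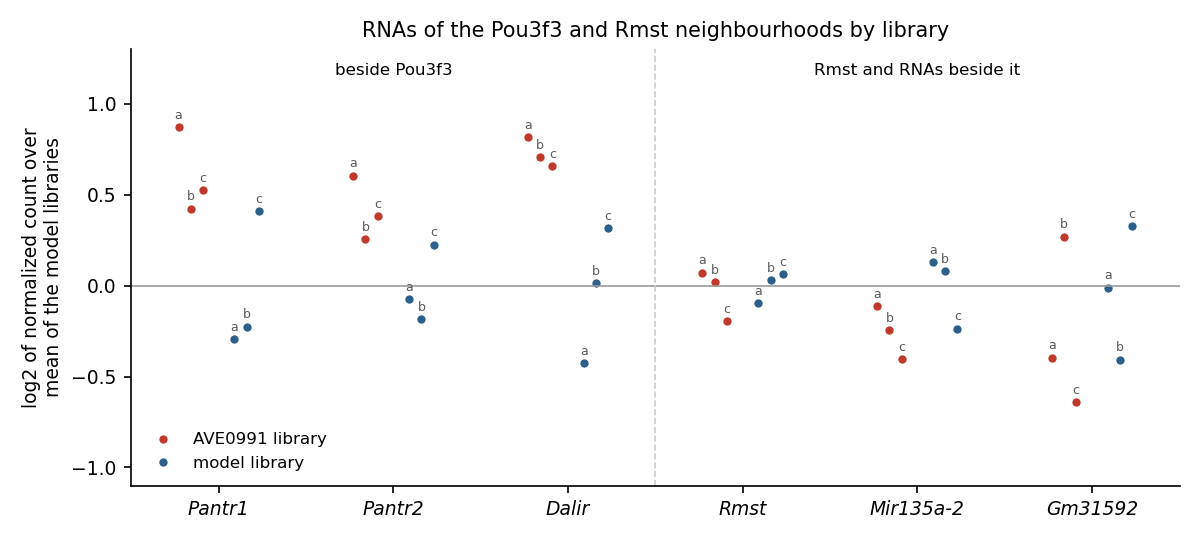
Log2 of each library's normalized count over the mean of the model libraries, for the 3 lncRNAs beside Pou3f3 (left of the dashed line) and for Rmst with 2 neighbours (right), with AVE0991 libraries in red, model libraries in blue and letters for the recovered libraries. Every AVE0991 library lies above every model library for Pantr1, Pantr2 and Dalir, as for 16.5% of tested names. The groups overlap for Rmst, Mir135a-2 and Gm31592.

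The members were set beside a list made mainly of lncRNAs of neural progenitors and neurogenesis. It also held Neat1, Malat1, Gas5, Meg3 and Dleu2, which are not particular to these. Of 28 listed, 20 were in the table and 18 could be tested; the list was written with earlier results of these data known. In these, 5 rose, 5 fell and 8 did not pass, where 7.56% of all tested names rose and 7.88% fell. Their median log2 fold change was -0.23, and it was -0.00025 over all tested names. The same split of 5 and 5 was found without model library c. The risers were Dlx6os1 and Emx2os, at forebrain homeobox genes, Sox1ot and Zeb2os, at transcription factor genes of neural development, and Miat, a nuclear lncRNA of the nervous system. Dlx6os1 rose most, with a log2 fold change of 2.74 ± 0.36 (SE; adjusted p = 0.00270, edgeR). Sox1ot had 1.46 ± 0.21, Miat 0.97 ± 0.23, Emx2os 0.83 ± 0.21 and Zeb2os 0.79 ± 0.18 on the same scale. Paupar and Otx2os1, beside the homeobox genes Pax6 and Otx2, fell by 2.39 and 1.21 on the log2 scale. Lhx1os, beside Lhx1, fell by 2.77, Crnde by 1.13 and Dleu2 by 0.50. The calls of Miat, Emx2os, Otx2os1, Zeb2os and Dleu2 were each lost in at least 4 of the 6 fits that left out a library, and Dleu2 also in 4 of the 9 other alternatives. Crnde lost its call without model library b (adjusted p = 0.0518, edgeR). With the authors' statistic none of the 10 passed. Of 5 further lncRNAs listed for POU-domain genes, the table held 0.

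Sox2ot, the lncRNA that spans the gene of SOX2, the binding partner of Rmst, did not pass. It had normalized counts of 10719, 7396 and 6970 with AVE0991 (libraries a to c), against 9532, 10706 and 8974 in model samples (libraries a to c). The highest value of the 6 was AVE0991 library a, and the groups overlapped. Its log2 fold change was -0.15 ± 0.17 (SE; adjusted p = 0.604, edgeR). With 1 library left out it ran from -0.37 without AVE0991 library a (adjusted p = 0.167, edgeR) to -0.079 without AVE0991 library c. The others that did not pass were Six3os1, Oip5os1, Nkx2-2os, Prox1os, Pax6os1, Neat1 and Gas5, with log2 fold changes from -0.55 for Prox1os to 0.88 for Six3os1. Prox1os was near the threshold (adjusted p = 0.0513, edgeR) and passed in 6 of 15 alternatives. Malat1 and Meg3 had no single set of counts and were not tested.

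**Figure D4:**
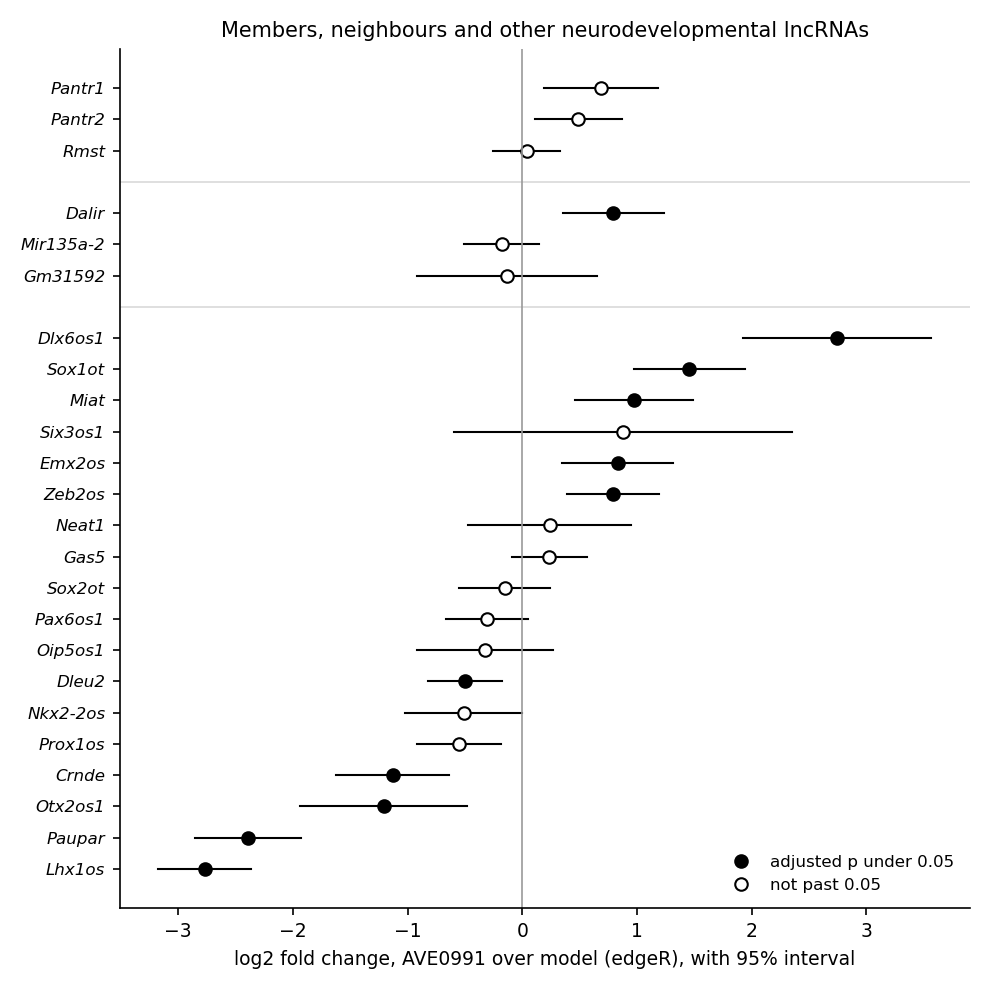
Log2 fold changes, AVE0991 over model, from edgeR with 95% intervals, for the 3 members (top), 3 tested neighbours (middle) and 18 other listed lncRNAs (bottom). These 18 are mainly neurodevelopmental, and filled points mark an adjusted p under 0.05. The intervals of Pantr1 and Pantr2 lie above 0 with open points, that of Rmst spans 0, and Dalir is the filled point among the neighbours.

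Lists of lncRNAs from other regions of the nervous system were also counted, against 15.4% of all tested names called. In a list written for lncRNAs at forebrain loci, 5 of 8 were in the table and tested. Dlx6os1, Emx2os and Sfta3-ps rose, Dlx4os fell and Six3os1 did not pass, with a median log2 fold change of 0.88. Whether Dlx4os belongs with forebrain loci was not checked. Dlx4os lost its call without model library a or b (adjusted p = 0.0519 and 0.0511, edgeR). The forebrain list had the same counts without model library c. Their summed normalized counts ran from 15657 to 20963 with AVE0991 and from 2149 to 4932 in the model group, where library c had the highest sum. Dlx6os1 made up 72.9% to 95.3% of these sums. In a list of lncRNAs at the Hox clusters of hindbrain and spinal cord, 7 of 11 were in the table. Hotairm1 fell and 6 did not pass (median log2 fold change -1.52), with the same counts without model library c. That median is the value of Hoxb5os (SE 1.58), with 18, 0 and 0 counts with AVE0991 (libraries a to c), against 0, 42 and 19 in model samples. Hoxaas2, Hoxaas3 and Halr1 had at most 7 counts in AVE0991 libraries b and c, so the median is not read as a fall of the list. Leaving out any 1 library but AVE0991 library a and model library c ended the Hotairm1 call (adjusted p from 0.0637 to 0.0925, edgeR). The Hox sums ran from 683 to 817 with AVE0991 and from 651 to 918 in the model group, but Evx1os made up 59.8% to 91.1% of them. Without Evx1os the sums were 249, 73.5 and 60.8 with AVE0991 (libraries a to c), against 215, 369 and 249 in model samples (libraries a to c), which overlapped through AVE0991 library a. Of 37 marker genes listed for dopaminergic neurons, other neurons, glia, vessels and progenitors, the named table held 1 (Dlx6os1), so the tissue was not checked against defining markers. The part of tissue make-up in the values of Pantr1, Pantr2 and Dalir was not tested. In tissue samples, more cells of a type and more RNA per cell cannot be told apart.

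The RNAs whose library pattern was most like each member were found by Pearson's r of log2(normalized count + 1) over the 6 libraries, among 1865 other tested names. These values are descriptions over 6 points that share depth and group. For Pantr1 the 5 highest were 4930505G20Rik, Gm9866, 4930579K19Rik, Ptgs2os and 1700010K23Rik, with r from 0.985 to 0.991, and none of these passed the edgeR test. Their log2 fold changes ran from 0.39 for Gm9866 to 1.73 for Ptgs2os. For Pantr2 the 5 highest were Gm16894, 9330179D12Rik, Emx2os, Gm2087 and Pantr1 itself, with r from 0.978 to 0.987. Of these, Emx2os, 9330179D12Rik and Gm2087 rose, by 0.83, 0.80 and 0.76 on the log2 scale. Each of these calls was lost when any 1 library other than model library c was left out (adjusted p from 0.0681 to 0.151, edgeR). The names were picked by likeness to Pantr2, whose groups did not overlap, so rises among them are not separate support. Over all tested names 7.56% rose. Pantr2 stood at place 11 of the RNAs most like Pantr1 (r = 0.978), while Dalir stood at place 67 (r = 0.928). Rmst had r = 0.199 with Pantr1 and r = 0.0774 with Pantr2. The 5 names most like Rmst were A330040F15Rik, Mir351, 1700049E22Rik, Zfp572 and 1700066B17Rik, with r from 0.946 to 0.989, and none of these passed the test.

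**Figure D5:**
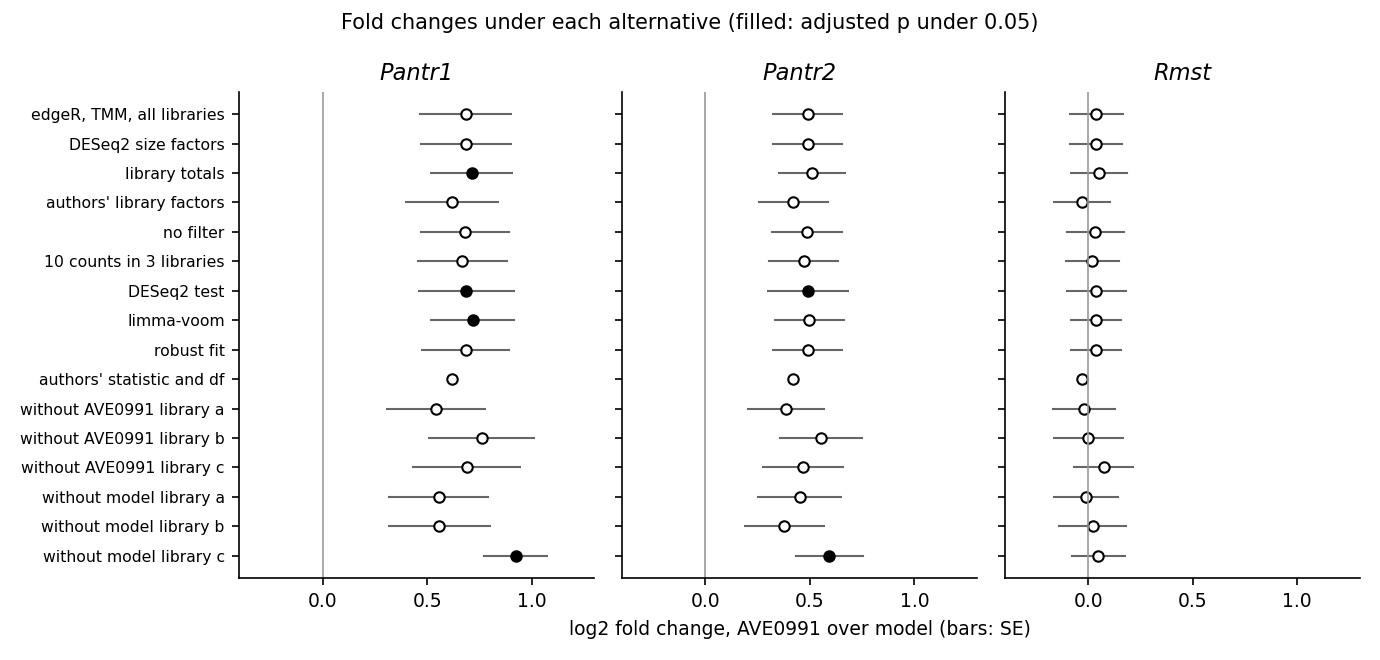
Log2 fold changes, AVE0991 over model, of Pantr1, Pantr2 and Rmst under edgeR with TMM scaling (top row) and 15 alternatives, with bars for the SE where a fit gives one and filled points for an adjusted p under 0.05. Pantr1 stays between 0.54 and 0.92 and Pantr2 between 0.38 and 0.59, both largest without model library c, while Rmst lies between -0.030 and 0.073.

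Over the 15 alternatives Pantr1 had log2 fold changes from 0.54 to 0.92 and passed in 4, which were library totals as scaling, DESeq2, limma-voom and the fit without model library c. Its adjusted p ran from 0.00461 to 0.294 over these. Pantr2 ran from 0.38 to 0.59 and passed in 2, DESeq2 and the fit without model library c. Its adjusted p ran from 0.0327 to 0.285 over all 15. Rmst passed in none, with adjusted p from 0.791 to 0.995. The fit without model library c leaves out the model library most like the AVE0991 libraries, so its calls are not separate support.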

How the data were processed

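Sample titles gave the groups, 3 AVE0991 and 3 model samples. The labels' protocols name TRIzol for RNA extraction, FastQC 0.11.8 for read quality and fastp 0.19.5 for trimming. Tools in the submitters' processing notes are DESeq2 1.10.1 and STAR 2.7.7a, with build mm9. The sources used here give no counting program, annotation or strand setting.

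The authors deposited whole-number counts for 87858 NONCODE identifiers (37036986 to 42379095 in all per AVE0991 sample, 43991913 to 52029003 per model sample). No file pairs identifiers with names, so these were used for depth only. Per its file headers, the authors' deposited table by name holds each group's mean signal (counts divided by library factors), a test statistic (a score), its degrees of freedom and p-value, a ratio and its log2, which equals that of the 2 means with 1 added to each.

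Whole counts were recovered from each mean and variance (relative tolerances 1e-09 and 1e-07). Of 2247 names with a test, 2241 (99.7%) had 1 set, 4 had several and 2 were too high to solve; 35 were 0 throughout. The members' sets were the same at 3 other variance tolerances. edgeR 4.0.16 (quasi-likelihood, TMM, filterByExpr, R 4.3.3) was run on all recovered counts, with Benjamini-Hochberg adjustment over 1866 names; the SE is the log2 fold change over the square root of F. Both steps were tested on simulated data. There the edgeR step missed all changes of about the size fitted for Pantr1 and Pantr2. Those changes were set in names drawn at random from all tested names, and fewer names were changed there than were called here. The simulation therefore does not give the chance of a call for Pantr1 or Pantr2. The fit on recovered counts did call Dleu2, at a log2 fold change of -0.50 (adjusted p = 0.0482, edgeR). A name that did not pass is still not shown to be unchanged. Alternatives used DESeq2 1.42.0, limma 3.58.1, other scalings and filters, and each library left out. Members, lists and tests were chosen with earlier results of these data known. Named RNAs were the members, all list members in the table, and the 5 RNAs most like each member (mean log2 CPM of at least 1). Names matched RefSeq symbols for 2270 of 2282. No sequences are shown, since no sequence table was used here. SciPy 1.17.1 gave the exact tests.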

Additional observations from a re-analysis of the deposited data

How the results depend on the processing

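The number of named RNAs changed was 288 and stayed within 1.5 times of that under other scalings, filters and tests, except 0 with the authors' statistic, where 424 had an unadjusted p under 0.05; it ran from 88 (without model library b) to 144 with any library but model library c left out, and was 417 without that one. Pantr1 (reported 0.68) passed with library totals (0.71), DESeq2 (0.69) and limma-voom (0.72), and ran from 0.54 to 0.92 with a library left out. Pantr2 (reported 0.49) passed with DESeq2 (0.49) and ran from 0.38 to 0.59. Rmst (reported 0.04) was -0.030 with the authors' library factors and -0.030 with the authors' statistic, and ran from -0.020 to 0.073 with a library left out, lowest without AVE0991 library a; it was also below 0 without model library a. No other alternative run turned a member's direction. List counts with the authors' statistic were 0 throughout. With a library left out they ran from 4 to 10 for the neural progenitor list (reported 10) and 2 to 4 for the forebrain list (reported 4). For Hox loci they ran from 0 to 3 (reported 1, and 2 with DESeq2). They ran from 0 to 1 for the miR-135 loci and 0 to 1 for neighbours (reported 1 each). Log2 fold changes spanned 0 with a library left out for Neat1 (-0.17 to 0.52), Hoxaas3 (-8.90 to 0.040, with 0 counts in 2 AVE0991 libraries) and Gm31592 (-0.46 to 0.036). For other named RNAs, 483 of 585 values kept direction and side of the threshold, 72 lost a call, 26 gained one and 4 turned sign; the cause was not tested. With Spearman's rho in place of r, 16, 19 and 3 names tied at a rho of 1 with Pantr1, Pantr2 and Rmst, so rho over 6 libraries gave no order for the RNAs most like Pantr1 and Pantr2. Fits without a library leave 2 against 3 and have fewer samples. No paired analysis was possible because the recovered libraries carry no replicate number.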
